A study of Mus musculus with 5 samples.

Results

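The Gata and Zic zinc finger genes were examined as targets of CBX2 in mouse embryonic fibroblasts (MEFs). The 9 genes were taken by name, Gata2, Gata3, Gata4, Gata5 and Gata6 among the GATA factors and Zic1, Zic2, Zic4 and Zic5 among the ZIC factors, out of 22380 protein-coding genes annotated on mm9. Zic1 and Zic4 form a head-to-head pair, as do Zic2 and Zic5, so that the 9 genes make up 7 loci. For each gene, the peaks that overlapped its gene body extended by 5 kb on each side were collected from each of 3 peak lists.

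CBX2 was immunoprecipitated from crosslinked MEF chromatin that had been digested with micrococcal nuclease, and the recovered DNA was sequenced. The Control library came from control cells of MEFs that carry loxP sites around exons of Eed, the gene of a PRC2 subunit. Whether these control cells had also been transduced is not given in the sources used here. The EZHIP and K27M libraries came from isogenic derivatives of these MEFs, transduced with a lentivirus for stable expression, under the EF1a promoter, of human EZHIP in one case and of histone H3.3 K27M in the other. The floxed Eed alleles are thus shared by all 3 groups, and the line made EED-null with Cre was not analysed here. There was 1 library and 1 list of broad peaks per group, and the Control list held 289 peaks, that of EZHIP 255 and that of K27M 327. The lists give the position of each peak and no height or score, read depth is unknown, and no difference between lists has a replicate check.

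CBX2 is a subunit of Polycomb Repressive Complex 1 (PRC1), and its chromodomain can bind trimethylated lysine 27 of histone H3 (H3K27me3), the mark deposited by Polycomb Repressive Complex 2 (PRC2). Both EZHIP, a protein of posterior fossa ependymomas, and H3.3 K27M, a histone of diffuse midline gliomas, inhibit PRC2. GATA factors bind GATA sequences through a pair of zinc fingers and direct the formation of blood (GATA2, GATA3), heart and endoderm (GATA4, GATA5, GATA6). ZIC factors carry zinc fingers related to those of the GLI proteins and act in the dorsal neural tube, the forebrain and the cerebellum. Genes of this kind are classic Polycomb targets in cells of other lineages, where PRC1 and PRC2 occupy their CpG-rich starts. The comparison addressed whether CBX2 at these genes differed when PRC2 was inhibited.

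The sequence just upstream of the starts is shown first, because CpG-rich starts are known sites of Polycomb binding and because the genes with and without CBX2 peaks can be compared in it. Each line holds the nearest 200 bases upstream of the start of the longest protein-coding transcript that overlap no annotated exon, which begin 43 bp from that start at Zic1, 54 bp at Zic2 and directly at it in the others, 5′ to 3′ on the strand of the gene, with every CpG in capitals (NCBIM37, the assembly of mm9). Zic1 (chr9:91260649-91260848, minus strand), Zic2 (chr14:122874404-122874603, plus strand), Zic5 (chr14:122864900-122865099, minus strand) and Gata4 (chr14:63864109-63864308, minus strand) lay inside a peak in each of the 3 lists.
Zic1: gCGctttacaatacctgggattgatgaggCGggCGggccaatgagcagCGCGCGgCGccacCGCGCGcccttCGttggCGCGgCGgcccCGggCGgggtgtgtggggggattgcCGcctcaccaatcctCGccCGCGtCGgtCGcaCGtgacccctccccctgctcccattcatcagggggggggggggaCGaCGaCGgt
Zic2: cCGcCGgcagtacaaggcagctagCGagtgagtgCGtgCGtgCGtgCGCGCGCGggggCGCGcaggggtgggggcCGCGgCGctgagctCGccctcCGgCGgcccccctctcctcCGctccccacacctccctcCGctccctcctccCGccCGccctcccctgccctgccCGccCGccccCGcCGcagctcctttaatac
Zic5: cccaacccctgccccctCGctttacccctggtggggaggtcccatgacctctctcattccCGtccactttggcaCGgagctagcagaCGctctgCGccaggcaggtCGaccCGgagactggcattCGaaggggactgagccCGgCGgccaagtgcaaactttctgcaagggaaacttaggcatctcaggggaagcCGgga
Gata4: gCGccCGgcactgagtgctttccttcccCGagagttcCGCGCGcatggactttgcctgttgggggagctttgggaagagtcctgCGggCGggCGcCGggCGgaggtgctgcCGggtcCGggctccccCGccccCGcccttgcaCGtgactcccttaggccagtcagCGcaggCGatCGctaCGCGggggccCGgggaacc
Gata2 (chr6:88143685-88143884, plus strand) and Gata5 (chr2:180069405-180069604, minus strand) lay in no peak of any list.
Gata2: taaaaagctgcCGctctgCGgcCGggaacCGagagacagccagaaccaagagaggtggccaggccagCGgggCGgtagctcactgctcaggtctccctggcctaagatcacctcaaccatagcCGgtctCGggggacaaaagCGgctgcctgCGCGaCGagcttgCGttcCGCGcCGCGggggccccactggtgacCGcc
Gata5: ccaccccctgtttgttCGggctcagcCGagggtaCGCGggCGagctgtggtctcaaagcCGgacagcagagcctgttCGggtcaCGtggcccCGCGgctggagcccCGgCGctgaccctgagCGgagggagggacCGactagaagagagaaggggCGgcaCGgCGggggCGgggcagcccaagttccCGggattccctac
Gata3 (chr2:9811662-9811861, minus strand) lay inside a peak in each list at its upstream start.
Gata3: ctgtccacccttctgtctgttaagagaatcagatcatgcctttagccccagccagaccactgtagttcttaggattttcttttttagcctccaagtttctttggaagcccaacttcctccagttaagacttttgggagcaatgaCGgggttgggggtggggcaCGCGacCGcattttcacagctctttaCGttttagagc
These 200 bases held 26 CpGs at Zic1, 26 at Zic2, 11 at Zic5 and 22 at Gata4. Gata2, with 18, and Gata5, with 19, had more CpGs than Zic5 although no peak was called there. Gata3 had 5 CpGs upstream of the start that was inside the peak. In these bases the counts at Gata2 and Gata5 thus lay within the range of the members shown with a CBX2 peak. The exons at the starts were not counted, and Gata6 and Zic4 are not shown. The corresponding bases at Zic4, 604 bp from its start, lay inside a peak in each list and held 1 CpG. Whether CpG number at the start relates to CBX2 was not tested.

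Most of the members had a CBX2 peak. Of the 9 genes, 7 had a peak in the Control list (all 4 Zic genes, Gata3, Gata4 and Gata6), and 6 had one in each of the other lists, the same genes without Gata6. Over all protein-coding genes, the share with a peak within the gene body plus 5 kb was 1.49% in Control, 1.44% in EZHIP and 1.78% in K27M. Among the 11907 genes (53.2%) with a CpG island window within 1000 bp of their 5′ end, a class that holds 8 of the 9 members, the shares were 2.24%, 2.20% and 2.59%. A CpG island window here is a stretch of 500 bp in which G+C reaches 55% and the CpG count reaches 0.65 of that expected from base composition. The annotated 5′ end of the gene itself lay inside a peak for 5 members in each list (the 4 Zic genes and Gata3), against 0.903% of all genes in Control, 0.894% in EZHIP and 1.19% in K27M, and against 1.40%, 1.39% and 1.86% of the genes with such a window. A peak in all 3 lists was found for 6 members and for 1.02% of all genes. At the start of the longest protein-coding transcript Gata4 was covered as well, which made 6 members in each list. The shares given above for a start in a peak refer to the annotated 5′ end and not to this start.

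The Zic1/Zic4 pair lay under 1 of the widest CBX2 domains of the data. Zic1 (ENSMUSG00000032368.8, chromosome 9, 91252896 to 91260648, minus strand) acts in the development of the dorsal neural tube and the cerebellum, and Zic4 (ENSMUSG00000036972.8, 91257251 to 91284186, plus strand) is its partner, deleted together with ZIC1 in some patients with a malformed cerebellum. The annotated 5′ ends of the pair lie 3.40 kb apart and the gene models overlap. In Control cells 1 peak of 45.8 kb (91244201 to 91290000) covered both genes in full. In EZHIP-expressing cells the peak measured 60.2 kb (91243601 to 91303800), and in H3.3 K27M-expressing cells it measured 60.4 kb (91243801 to 91304200). These peaks ranked 5 of 289, 4 of 255 and 5 of 327 by width in their lists.

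The Zic1/Zic4 peaks were 1.31 times (EZHIP) and 1.32 times (K27M) as wide as the Control peak, which is 0.39 and 0.40 on the log2 scale. Nearly all of the added width lay on 1 side. The edge beyond the 3′ end of Zic1 moved outward by 0.6 kb in EZHIP and 0.4 kb in K27M, which is 3 bins and 2 bins of 200 bp. The edge beyond the 3′ end of Zic4 moved outward by 13.8 kb in EZHIP and by 14.2 kb in K27M, so that the peaks ran 19.614 kb and 20.014 kb past the end of the annotated gene, against 5.814 kb in Control. The stretch gained in EZHIP contained 0 CpG island windows and no annotated exon, and its CpG density was 12.9 per kb against 23.5 per kb in the Control peak. All 7 CpG islands at the pair (7.35 kb in all, from merged windows) lay inside the peak in each list. Taking each comparison alone, 33.3% of the genes with peaks in both lists were wider in EZHIP and 61.9% were wider in K27M. Among the 228 genes with a peak in all lists, 21.5% were wider than Control in both.

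**Figure D1:**
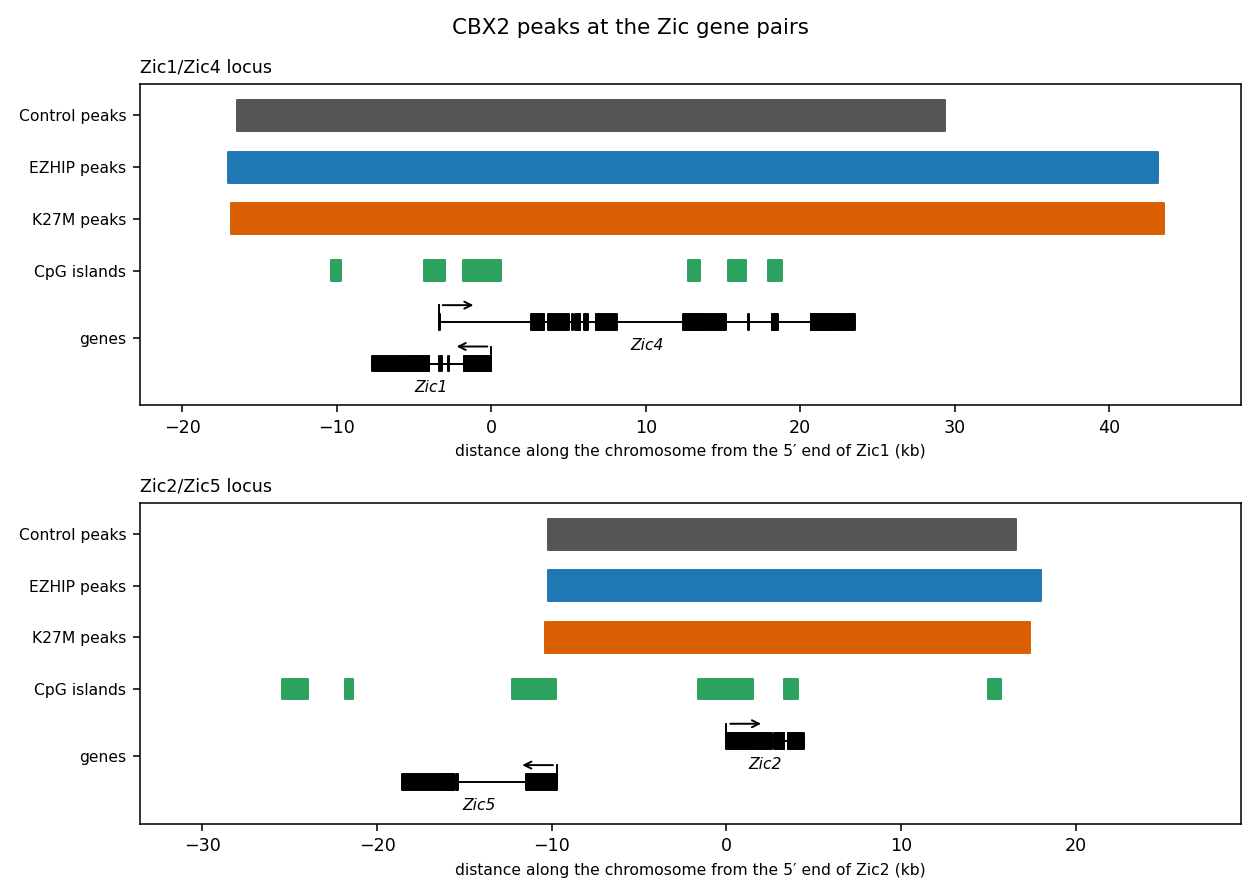
Maps of the Zic1/Zic4 and Zic2/Zic5 loci, with position along the chromosome in kb from the 5′ end of Zic1 or Zic2. Bars show the called CBX2 peaks of the Control, EZHIP and K27M lists (1 library each), green boxes the CpG islands (merged windows), black boxes the exons of all annotated transcripts, and arrows the annotated 5′ ends. In each list 1 peak covers both 5′ ends of a pair, and the EZHIP and K27M peaks at Zic1/Zic4 reach 13.8 and 14.2 kb farther to the right than the Control peak.

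The Zic2/Zic5 pair had a narrower domain that was nearly the same in the 3 lists. Zic2 (ENSMUSG00000061524.7, chromosome 14, 122874604 to 122879074, plus strand) is required for formation of the forebrain midline and is mutated in holoprosencephaly, and Zic5 (ENSMUSG00000041703.7, 122856017 to 122864899, minus strand) acts in the neural tube and neural crest. Their 5′ ends lie 9.71 kb apart, with the long noncoding RNA gene 2610035F20Rik between them. The Control peak was 26.8 kb wide (122864401 to 122891200). The EZHIP peak reached 28.2 kb (122864401 to 122892600), and the K27M peak 27.8 kb (122864201 to 122892000). The log2 ratios to Control were 0.07 for EZHIP and 0.05 for K27M. The edges at Zic5 coincided within 1 bin, and the edges beyond Zic2 differed by 1.4 kb at most.

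These domains were not symmetric about the pair. The Zic2 gene body was covered in full in each list, whereas 5.62% of the Zic5 body was covered in Control and EZHIP and 7.87% in K27M. The peak ended 498 bp inside Zic5 in Control and EZHIP and 698 bp inside it in K27M, and thus contained its start and little more of the gene. At the other end it ran 12.126 kb past the 3′ end of Zic2 in Control, and the domain contained the start of the predicted gene Gm10837 in each list. The CpG island next to the start of Zic5 was cut by this edge and a further one beyond the 3′ end of Zic5 lay outside, so that 63.3% of the island length of the locus lay inside the Control and EZHIP peaks and 66.2% inside the K27M peak.

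A single peak thus held both 5′ ends of each of the 2 Zic pairs in each of the 3 lists. For reference, 2336 head-to-head pairs of protein-coding genes have 5′ ends at most 10 kb apart, and 1 peak held both ends for 1.20% of them in Control, 1.16% in EZHIP and 0.899% in K27M. Among the pairs with at least 1 end in a peak, the shares were 71.8% (28 of 39), 64.3% (27 of 42) and 63.6% (21 of 33). Spanning of a pair was therefore the usual form once a peak reached one of its starts, and the Zic pairs followed it.

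Gata4 had the largest difference between lists among the members. Gata4 (ENSMUSG00000021944.8, chromosome 14, 63817759 to 63890529, minus strand) encodes a factor of heart and endoderm formation. In Control cells 1 peak of 34.4 kb (63855001 to 63889400) ran across the start of the full-length transcripts at 63864108 and upstream of it. In H3.3 K27M-expressing cells the peak measured 39.4 kb (63850001 to 63889400) and ended at the same base upstream. In EZHIP-expressing cells there were 2 peaks instead, of 10.0 kb (63860001 to 63870000) and 6.0 kb (63881401 to 63887400). Both lay within the Control peak and together covered 46.5% of it.

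The summed width at Gata4 was 0.465 times Control in EZHIP, or -1.10 on the log2 scale, and 1.15 times Control in K27M, or 0.20. The first EZHIP peak contained the 3 clustered coding starts near 63864108, so CBX2 was called at this start in each list. The 11.4 kb between the EZHIP peaks contained no annotated exon and 1 CpG island of 1.20 kb, and had 18.8 CpGs per kb against 27.5 in the first EZHIP peak. Inside the EZHIP peaks lay 37.8% of the CpG island length of the locus, against 100% in the Control and K27M peaks. The K27M peak was longer on the side of the gene body, by 5.0 kb without a CpG island. Of the 247 genes with exactly 1 Control peak and any EZHIP peak, 3 (1.21%) had 2 or more EZHIP peaks, and Gata4 was 1 of them. A width below Control was found in EZHIP for 56.6% of the genes with peaks in both lists, and in K27M for 28.4%. A width below Control in EZHIP together with one above Control in K27M was common, at 40.4% of the genes with a peak in all lists. The 11.4 kb gap is just above the maximum gap of 10000 set in the peak calling.

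**Figure D2:**
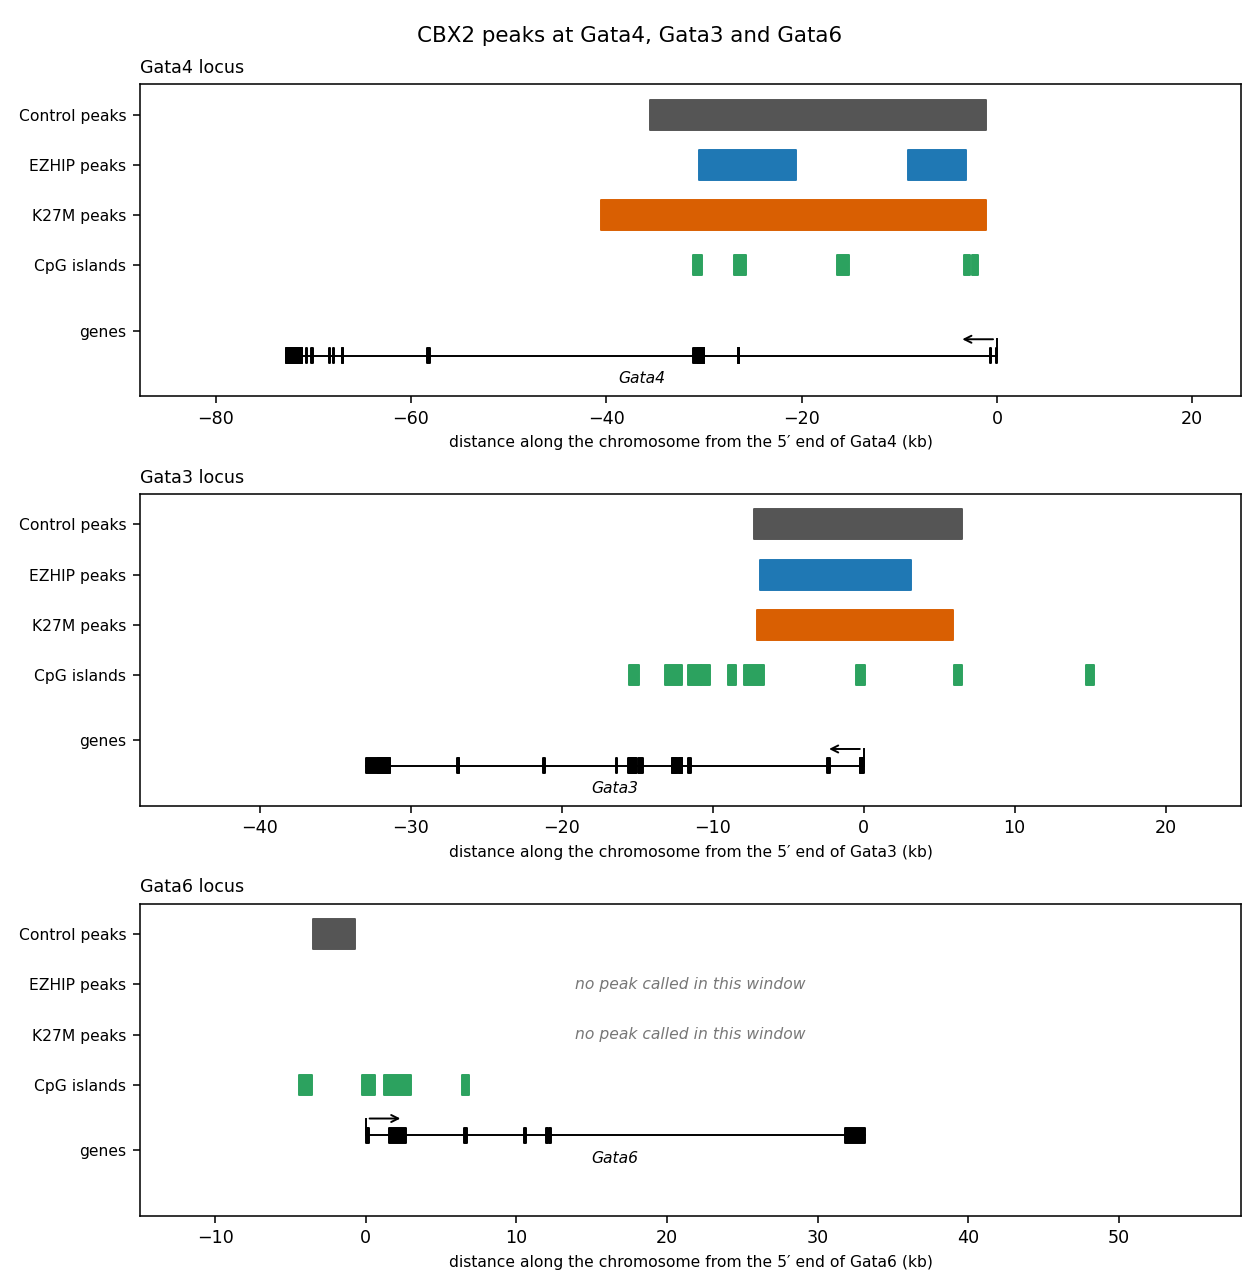
Maps of the Gata4, Gata3 and Gata6 loci, with position along the chromosome in kb from the annotated 5′ end of each gene. Symbols are those of the maps of the Zic pairs. The single Control and K27M peaks at Gata4 contrast with 2 EZHIP peaks separated by 11.4 kb, the peaks at Gata3 cover the upstream start and end within 1 of the CpG islands downstream of it, with the islands farther downstream outside, and at Gata6 a 2.8 kb peak is present in the Control list alone.

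At Gata3 the peaks marked the upstream of 2 starts. Gata3 (ENSMUSG00000015619.9, chromosome 2, 9778705 to 9811661, minus strand) encodes a factor of T cells, sympathetic neurons and luminal epithelia, and has coding transcripts that begin at 9811661 and at 9800227. The Control peak was 13.8 kb wide (9804401 to 9818200). The EZHIP peak was 10.0 kb wide (9804801 to 9814800), and the K27M peak 13.0 kb (9804601 to 9817600). Each contained the start at 9811661 and ended 4174, 4574 and 4374 bp short of the start at 9800227. The only RefSeq promoter sequence of Gata3 in the reference table matched NCBIM37 once, and its start was at 9800227, outside the peaks. The 4.173 kb between that start and the Control peak held 4 CpG island stretches of 2.40 kb in all, with 45.1 CpGs per kb against 22.8 in the Control peak. Over the whole locus 22.1% of the CpG island length lay inside the Control peak, 15.0% inside the EZHIP peak and 18.6% inside the K27M peak.

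The sequence upstream of this second start is shown for comparison with that of the first. The nearest 200 bases free of annotated exons (chr2:9800497-9800696, minus strand, 270 bp from the start) contained 7 CpGs, in capitals.
Gata3 downstream start: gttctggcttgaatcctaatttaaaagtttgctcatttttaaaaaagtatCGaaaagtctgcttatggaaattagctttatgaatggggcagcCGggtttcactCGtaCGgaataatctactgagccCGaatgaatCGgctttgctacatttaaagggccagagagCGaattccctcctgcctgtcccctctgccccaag
The peaks at Gata3 agreed on the side of the gene body to within 2 bins. On the other side the EZHIP peak ended 3.4 kb before the Control peak and the K27M peak 0.6 kb before it. The log2 ratio of width to Control was -0.46 for EZHIP and -0.09 for K27M, and 18.0% of the genes with a peak in all lists were narrower than Control in both. The annotated coding gene 9230102O04Rik, on the same strand, also had its start inside each of these peaks, and the peaks could not be assigned to 1 of these genes from position alone.

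At Gata6 a peak was called in the Control list and in neither other list. Gata6 (ENSMUSG00000005836.8, chromosome 18, 11052508 to 11085633, plus strand) encodes a factor of primitive endoderm and heart. The Control peak was 2.8 kb wide (11049001 to 11051800), ended 708 bp upstream of the start, and lay within the divergent long noncoding RNA gene 1010001N08Rik for 2716 bp. It covered none of the Gata6 body. It ranked 242 of 289 by width in its list and contained 0 full CpG island windows, while 4 CpG islands of 4.05 kb in all lay in the Gata6 window outside it. The nearest EZHIP peak lay 347 kb from the gene and the nearest K27M peak 4220 kb from it. Of the 333 genes with a Control peak, 22.5% had none in EZHIP, 16.5% had none in K27M, and 25 genes (7.51%) had neither, Gata6 among them.

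Gata2 and Gata5 had no CBX2 peak in any list. Gata2 (ENSMUSG00000015053.8, chromosome 6, 88143885 to 88157024, plus strand) encodes a factor of blood stem cells, and Gata5 (ENSMUSG00000015627.4, chromosome 2, 180059838 to 180069404, minus strand) encodes a factor of endoderm and the endocardium. The nearest peak to Gata2 lay 3000 kb away in Control and K27M and 4470 kb away in EZHIP. For Gata5 the distance was 1590 kb in Control and K27M and 1120 kb in EZHIP. Both genes have CpG islands at their starts. The Gata2 window held 4 islands of 6.75 kb in all, a length close to that of Zic1/Zic4 (7.35 kb) and Zic2/Zic5 (6.95 kb) and above that of Gata4 (4.50 kb). The Gata5 window held 1 island of 1.75 kb. Absence from a list shows that no peak was called, and without reads it cannot be told apart from a low level of CBX2.

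**Figure D3:**
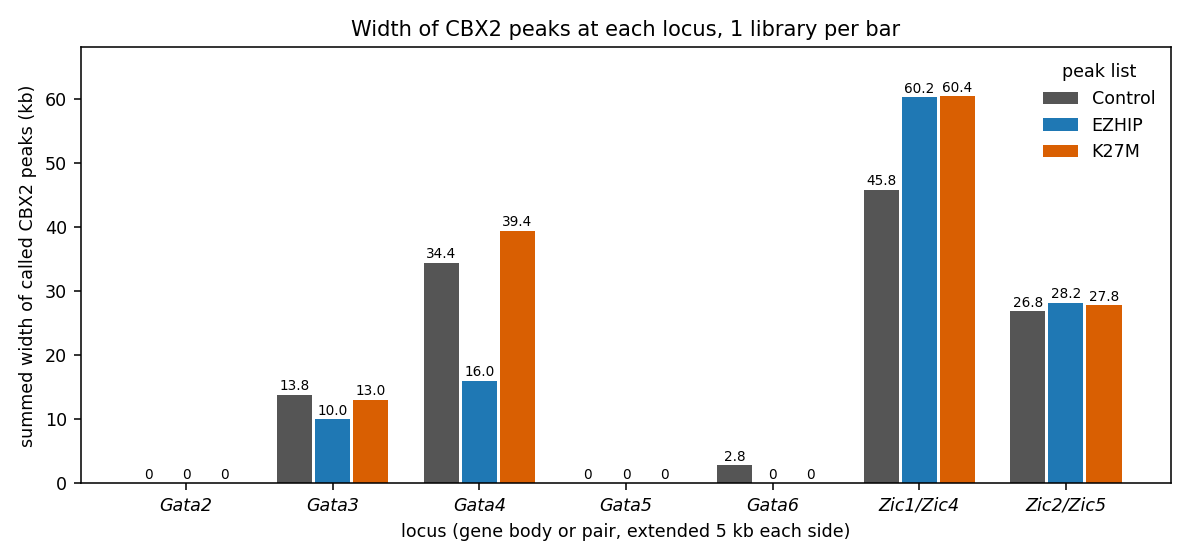
Summed width of the called CBX2 peaks in kb at each of the 7 loci, with 1 bar for each list and 1 library for each bar, so that no error bar can be drawn. The Zic1/Zic4 bars stand at 45.8, 60.2 and 60.4 kb and the Zic2/Zic5 bars between 26.8 and 28.2 kb, Gata4 is lowest in EZHIP at 16.0 kb, and Gata2 and Gata5 are at 0.

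Set side by side, the loci covered a wide range. In Control the widths ran in the order Zic1/Zic4 (45.8 kb), Gata4 (34.4 kb), Zic2/Zic5 (26.8 kb), Gata3 (13.8 kb) and Gata6 (2.8 kb). The K27M list kept this order for the 4 loci it held. In EZHIP Gata4, at 16.0 kb, fell below Zic2/Zic5, at 28.2 kb. The distinct peaks at the members summed to 123.6 kb for Control, 114.4 kb for EZHIP and 140.6 kb for K27M, which was 3.78%, 4.14% and 3.15% of the length covered by each list. Over the 4 loci with peaks in each list, the median log2 width ratio was -0.20 for EZHIP and 0.12 for K27M, against -0.06 over 258 genes and 0.12 over 278 genes with peaks in both lists compared. With 4 loci of opposite signs, the median says little about any of them.

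**Figure D4:**
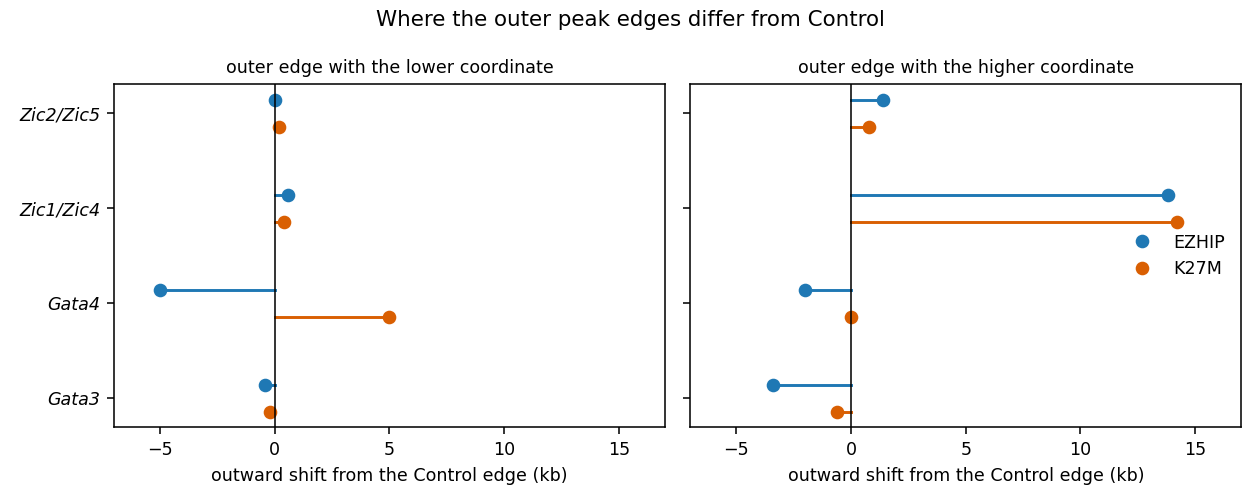
Shift in kb of the outer peak edges from the Control edge at the 4 loci with peaks in each list, with positive values outward. The left panel shows the edge with the lower coordinate and the right panel the edge with the higher one. The largest shifts are those of the right edge at Zic1/Zic4, 13.8 kb for EZHIP and 14.2 kb for K27M, and the left edge at Gata4, 5.0 kb inward in EZHIP and 5.0 kb outward in K27M.

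The lists shared the whole Control domain at the Zic pairs, most of it at Gata3 and 46.5% of it at Gata4. The Control peaks at Zic1/Zic4 and Zic2/Zic5 lay entirely inside the EZHIP and K27M peaks. At Gata3 the reverse held, and the EZHIP and K27M peaks lay inside the Control peak and covered 72.5% and 94.2% of it. At Gata4 the EZHIP peaks lay inside the Control peak, which lay inside the K27M peak. All lists together shared 45.8 kb at Zic1/Zic4, 26.8 kb at Zic2/Zic5, 16.0 kb at Gata4 and 10.0 kb at Gata3.

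**Figure D5:**
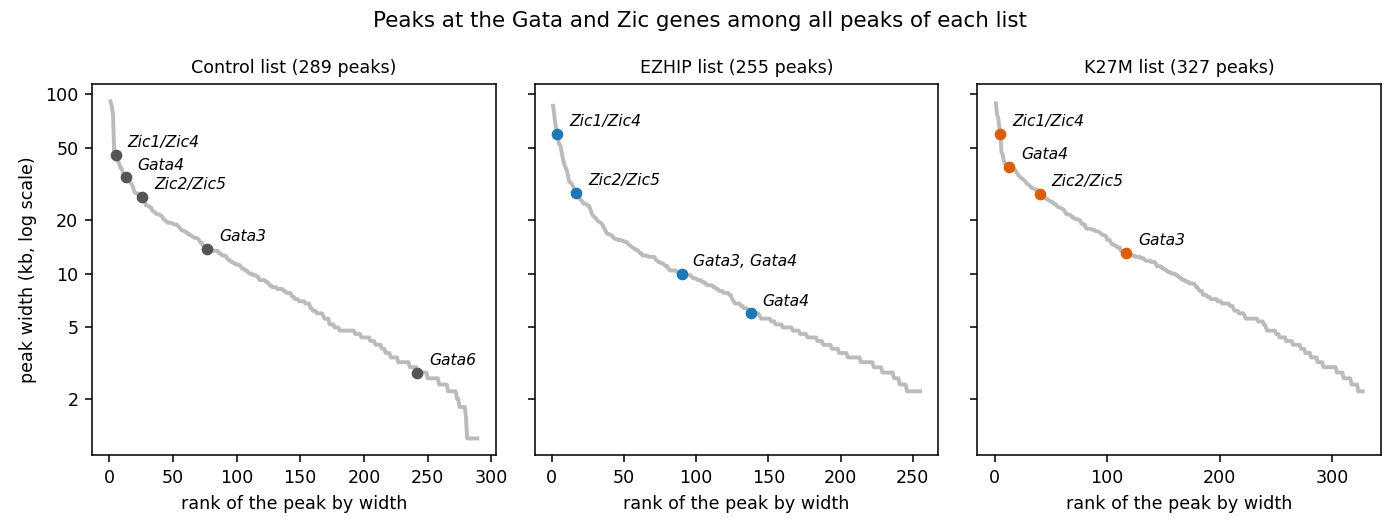
Widths of all peaks of each list on a log scale in kb, in order of rank, with the peaks at the Gata and Zic genes marked. The Zic1/Zic4 peak ranks 5, 4 and 5, whereas the Gata6 peak ranks 242 of 289 in the Control list and has no counterpart in the others.

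The sequence of the peaks at the members was largely unique. Of their 32-mers sampled every 100 bp, the share that occurred more than once in the genome was 5.00% at most, in the EZHIP peak at Gata3, and 0% in the Control peak at Gata6.

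Other genes with related zinc fingers were looked up in the same way (Gata1, Trps1, Gli1, Gli2, Gli3, Glis1, Glis2 and Glis3). Trps1, an atypical GATA-type repressor, had a peak of 7.2 kb in the EZHIP list, away from its 5′ end, and none in the other lists. Gata1 and the GLI and GLIS genes, which share the ZIC type of zinc finger, had no peak in any list. Among 10 partners of GATA factors, 2 had a peak in Control, 2 in EZHIP and 4 in K27M. A Control peak was found at 1.49% of all protein-coding genes, an EZHIP peak at 1.44% and a K27M peak at 1.78%. The K27M list thus reached the most genes, 398 against 333 for Control and 322 for EZHIP. Peaks at Tal1, a blood stem cell factor, were 4.8 kb wide in Control cells, 9.6 kb with EZHIP and 12.4 kb with K27M. Those at Nkx2-5, a cardiac partner of GATA4, measured 13.4, 16.6 and 20.2 kb in the same order. Of all genes with peaks in both lists compared, 33.3% were wider than Control in EZHIP and 61.9% in K27M. A peak of 9.6 kb at Hand2 and a peak of 4.2 kb at Lmo2 were called in K27M, and neither gene had one in Control or EZHIP. Of the 398 protein-coding genes with a K27M peak, 278 also had a Control peak, so a K27M peak without one was not rare. The other 6 partners, among them the GATA cofactors Zfpm1 and Zfpm2, had none.

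Genes of the roof plate and neural plate border, where Zic genes act, were compared with the Zic pairs. Of 8 such genes analysed, 4 had a peak in Control, 1 in EZHIP and 4 in K27M. Over all protein-coding genes the shares were 1.49%, 1.44% and 1.78%. Pax3 had a peak of 11.6 kb in Control and 21.4 kb in K27M. The peaks measured 8.2 and 12.6 kb at Msx1 and 5.0 and 5.6 kb at Lmx1a, in the same order. These 3 genes had none in EZHIP, as had 22.5% of the 333 genes with a Control peak. Pax7 had a peak in each list, of 10.0 kb for Control, 12.6 kb for EZHIP and 17.2 kb for K27M. Like Pax7, both Zic pairs had a peak in each list. Msx2, Gdf7, Wnt1 and Wnt3a had no peak. None of 10 fibroblast genes (such as Col1a1, Pdgfra and Twist1) and none of 10 genes for PRC1 and PRC2 subunits (Eed among them) had a peak in any list. With peaks at so small a share of all genes, this absence was the usual outcome and does not bear on the cell type. The lists hold no expression values, so the cell type could not be checked here.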

How the data were processed

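The data were CBX2 ChIP-Seq peak lists from MEFs. Per the labels and the published methods, the authors aligned reads to mm9 with Bowtie 1.0.0 at default parameters and called broad peaks per library with MOSAiCS-HMM, with a maximum gap of 10000. Whether an input library or scaling entered the calls is not given in the sources used here. Each deposited list held 3 columns (chromosome, start, end) and no score. Peaks were runs of whole 200 bp bins and are given 1-based. The labels also name K27R and EEDnull libraries, not analysed here.

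Genes came from GENCODE vM1 on NCBIM37, the assembly of mm9. A gene had a peak when at least 1 bp overlapped its body (union of transcripts) plus 5 kb. Width ratios used summed widths per locus. RefSeq promoter sequences of 6 members (7 entries, all 7 matched exactly once) were placed on NCBIM37 by exact search. CpG island windows were 500 bp long in steps of 50 bp. Scripts used Python 3.11.15, NumPy 2.4.6 and samtools 1.23.1, and the overlap functions were tested on simulated data. With 1 library per group no test was run. The members and lists were chosen with earlier results of these data known, and all 9 members are named. Genes of the related lists are named with their peak values, neighbours where a peak at a member contained their start or came within 5 kb, and like genes by nearest summed peak width. Tfap2a, of the roof plate list, was not analysed here, and some genes that these rules would name are not reported here.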

Additional observations from a re-analysis of the deposited data

Results flagged for a closer look

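Gata4 was flagged because its summed CBX2 peak width differed from Control in the other libraries, by -1.10 on the log2 scale in EZHIP and by 0.20 in K27M. With 1 library per group, the difference was not tested. The opposite directions did not set Gata4 apart, because the same combination was found at 40.4% of the 228 genes with a peak in all lists.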

How the results depend on the processing

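The numbers of members with a peak and with a start inside a peak, the number of spanned pairs, the summed widths and the median width ratios were recomputed with peaks of at least 5000 bp only, with peaks closer than 10000 bp joined, with no extension or 10 kb of extension of the gene body, with a minimum overlap of 1000 bp, and with the longest protein-coding transcript. The use of any annotated coding start was added after the data were seen. For 14 results under 7 settings this gave 66 values, and 66 stayed within 1.5 times the reported value (for log2 ratios, within that factor and of the same sign). The values with joined peaks equalled the reported ones. Peak calling had already used a maximum gap of 10000, so this setting could not serve as an independent check. The Gata6 peak of the Control list was lost with the 5000 bp minimum and with no extension, which left 6 members with a Control peak. Gata4 joined the members with a start inside a peak under the longest transcript and under any coding start, which made 6 in each list. The longest transcript of Gata4 left out the second EZHIP peak, with 108.4 kb in place of 114.4 kb summed over the members. No paired analysis was possible because there was a single library per group (1 each), which also left none to leave out. Read depth is unknown, which limits every comparison of width and presence between lists.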

Other observations

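For each locus with a peak, the other protein-coding genes with the same presence over the lists were ordered by likeness, the sum over the lists of the absolute log2 differences in summed peak width. For Zic1/Zic4 the nearest were Evx2, Gm14396 and Hoxd10, which share 1 domain per list at the Hoxd cluster (46.2 kb for Control, 64.6 kb for EZHIP and 47.6 kb for K27M), at a summed difference of 0.46 over 3 lists. The nearest to Zic2/Zic5 were the neural genes Nr2e1 (difference 0.36) and Sim1 (27.6, 24.4 and 31.0 kb, 0.41), with Nkx2-3 between them (25.2, 24.6 and 30.0 kb, 0.40).

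For Gata4, Speer4e (difference 0.74) and Pax6 (32.6, 25.4 and 34.4 kb, difference 0.94) were among the 3 nearest. For Gata3 the nearest were Foxd3 (difference 0.27), Pitx1 (0.34) and 4933403O03Rik (0.38). The nearest to Gata6 among genes with a peak in Control alone were Tbr1 (2.6 kb), Atf4 (2.4 kb) and Ddit3 (2.4 kb), compared over 1 list. Besides the members, 222 genes had a peak in all lists and 24 in Control alone.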
